A study of Mus musculus with 3 samples.

Results

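Rag1, Rag2 and Dntt encode the enzymes that build and diversify antigen receptor genes in developing lymphocytes. Open chromatin around these 3 genes, of 21728 protein-coding genes with a promoter in the annotation, was described in 4 lists of ATAC-seq peaks from mouse B-cell lines. Peaks were taken in each list when they overlapped a gene body extended by 120 kb on both sides. Rag1 and Rag2 are neighbours, so their windows were joined into a Rag window, chr2:101504718-101769501, and the Dntt window was chr19:40909275-41179525 (mm10). Together the windows held 92 of the 141076 peaks, which merged into 30 of the 50965 regions of all lists, 13 in the Rag window and 17 in the Dntt window.

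ATAC-seq marks DNA that a transposase can reach. The lines had been made from bone marrow of mice homozygous for wildtype CDK6 (CDK6-WT, here WT) or for CDK6-K43M (here K43M), a mutant of the cell-cycle kinase CDK6 without kinase activity. Cells of both genotypes had been transduced with a retrovirus and express BCR-ABL(p185), the fusion kinase of a B-cell acute leukemia, and no treatment is given for them. The ages of the mice were not given in the sources used here. There were 2 lines per genotype. The labels name both K43M lines, replicates 1 and 2, and the second WT line, replicate 2. The list called WT unnumbered here has no sample of its own, and the design text of the series places it in the wildtype group. That text says that the first wildtype line was deposited earlier and reanalysed, and the list was taken as that line. Where 4 values are given together, they stand for WT unnumbered, WT replicate 2, then K43M replicate 1 and 2. The sources used here do not say how many mice the lines came from, so p-values measure only the spread between these lines.

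RAG1 and RAG2 form the recombinase that cuts DNA beside the V, D and J segments, and the cut ends are rejoined by the end-joining proteins. TdT, the product of Dntt, adds untemplated nucleotides to these junctions. In B-cell progenitors the Rag genes are known to be switched on together from promoters and from enhancers that lie on the upstream side of Rag2, and Dntt is known as a marker of early lymphoid cells. Transcription factors such as E2A, FOXO1, RUNX, ETS proteins and Ikaros are known to act on these genes.

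Rag1 (ENSMUSG00000061311.6) lies at chr2:101638282-101649501 on the minus strand and Rag2 (ENSMUSG00000032864.4) at chr2:101624718-101632529 on the plus strand. The genes point towards each other, with 24.8 kb between their starts and 5.75 kb between their ends. Dntt (ENSMUSG00000025014.13) lies at chr19:41029275-41059525 on the plus strand. The promoters of the 3 genes are shown first, since only 2 of them had a peak. The 250 bases before each start come from the RefSeq promoter table of GRCm38.p6, in which all 3 genes were found. Capitals mark matches on either strand to short motifs: E2A-type E-box (CAGGTG or CAGCTG), ETS (AGGAAG), RUNX (TGTGGT), Ikaros (TGGGAA), EBF1 (CCCNNGGG), FOXO (TAAACA), STAT (TTCNNNGAA), AP-1 (TGANTCA) and the CCAAT box. The plain E-box (CANNTG) was also searched and is not in capitals. It includes every E2A-type match.
Rag1 promoter, chr2:101649533-101649782, minus strand: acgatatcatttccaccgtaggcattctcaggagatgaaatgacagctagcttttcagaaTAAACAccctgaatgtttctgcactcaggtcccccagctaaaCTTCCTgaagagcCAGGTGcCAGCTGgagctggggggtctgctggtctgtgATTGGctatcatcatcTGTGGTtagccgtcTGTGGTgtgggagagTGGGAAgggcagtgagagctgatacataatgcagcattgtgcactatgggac
Rag2 promoter, chr2:101624462-101624711, plus strand: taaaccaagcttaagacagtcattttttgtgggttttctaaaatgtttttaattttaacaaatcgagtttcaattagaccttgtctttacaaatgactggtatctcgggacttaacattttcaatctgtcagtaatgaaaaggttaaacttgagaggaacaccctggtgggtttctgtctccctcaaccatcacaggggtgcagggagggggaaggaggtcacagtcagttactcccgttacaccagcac
Dntt promoter, chr19:41029025-41029274, plus strand: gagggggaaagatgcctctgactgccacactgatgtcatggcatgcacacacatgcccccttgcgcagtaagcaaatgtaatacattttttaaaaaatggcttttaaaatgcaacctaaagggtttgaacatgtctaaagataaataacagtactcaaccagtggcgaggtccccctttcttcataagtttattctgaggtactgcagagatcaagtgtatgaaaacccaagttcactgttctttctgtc

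The Rag1 promoter held 8 matches to these motifs. Counted from the RefSeq start, E2A-type E-boxes began at −135 and −128, RUNX matches at −81 and −67, an Ikaros match at −52, a reversed CCAAT box at −97, an ETS match at −148 and a FOXO match at −190. Of the 32851 promoters in the table, 27.7% held an E2A-type E-box in the same 250 bases, 14% a RUNX match, 21.6% an Ikaros match, 33.8% a CCAAT box, 29.5% an ETS match and 12% a FOXO match. The Rag2 promoter held 1 plain E-box and the Dntt promoter 3, and neither held any of the other motifs. A match is a run of letters and not a shown binding site, and the lack of a match says nothing about a factor.

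Distal regions that the results below turn on are shown as the 300 bases centred on the summit of their strongest peak, read on the plus strand of GRCm38, with the same capitals. The first 3 are the distal Rag regions with a peak in all 4 lists that lie within 30 kb of a Rag start on its upstream side. The next had the largest difference in level between genotypes in the Rag window. The last pair are the Dntt region most reduced in K43M and the highest region of the Dntt gene body.
Region 25.7 kb upstream of Rag2, chr2:101598847-101599146: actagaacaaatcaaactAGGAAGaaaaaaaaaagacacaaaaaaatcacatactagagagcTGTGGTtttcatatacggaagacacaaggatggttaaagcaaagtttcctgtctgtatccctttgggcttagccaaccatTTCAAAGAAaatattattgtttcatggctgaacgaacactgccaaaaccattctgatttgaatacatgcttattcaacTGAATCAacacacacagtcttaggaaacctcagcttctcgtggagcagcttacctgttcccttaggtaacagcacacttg
Region 8.7 kb upstream of Rag2, chr2:101615908-101616207: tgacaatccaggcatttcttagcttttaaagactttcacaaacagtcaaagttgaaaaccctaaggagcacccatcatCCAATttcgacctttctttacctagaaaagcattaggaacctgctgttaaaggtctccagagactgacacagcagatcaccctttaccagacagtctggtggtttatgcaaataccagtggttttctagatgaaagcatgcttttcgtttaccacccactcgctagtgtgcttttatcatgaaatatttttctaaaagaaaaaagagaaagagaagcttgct
Region 16.0 kb upstream of Rag1, chr2:101665322-101665621: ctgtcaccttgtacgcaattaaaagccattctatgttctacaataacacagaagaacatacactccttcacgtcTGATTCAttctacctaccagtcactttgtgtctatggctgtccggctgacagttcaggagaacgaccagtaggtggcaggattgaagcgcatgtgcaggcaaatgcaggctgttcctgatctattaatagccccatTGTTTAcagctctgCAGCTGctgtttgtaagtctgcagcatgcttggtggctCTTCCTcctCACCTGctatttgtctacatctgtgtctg
Region 113.1 kb upstream of Rag1, chr2:101762492-101762791: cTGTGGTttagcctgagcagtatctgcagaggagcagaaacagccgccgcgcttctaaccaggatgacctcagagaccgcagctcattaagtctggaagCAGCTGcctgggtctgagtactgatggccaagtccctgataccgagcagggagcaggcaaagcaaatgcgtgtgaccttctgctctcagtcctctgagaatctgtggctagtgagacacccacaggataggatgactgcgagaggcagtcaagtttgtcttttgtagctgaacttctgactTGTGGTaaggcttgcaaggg
Region 6.9 kb upstream of Dntt, chr19:41022196-41022495: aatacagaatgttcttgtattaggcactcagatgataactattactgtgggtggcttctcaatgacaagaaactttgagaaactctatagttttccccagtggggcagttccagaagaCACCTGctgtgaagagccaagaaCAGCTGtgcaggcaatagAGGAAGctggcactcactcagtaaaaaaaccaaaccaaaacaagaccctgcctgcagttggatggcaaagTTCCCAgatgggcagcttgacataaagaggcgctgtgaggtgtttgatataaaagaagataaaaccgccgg
Region 10.0 kb downstream of the Dntt start, chr19:41039142-41039441: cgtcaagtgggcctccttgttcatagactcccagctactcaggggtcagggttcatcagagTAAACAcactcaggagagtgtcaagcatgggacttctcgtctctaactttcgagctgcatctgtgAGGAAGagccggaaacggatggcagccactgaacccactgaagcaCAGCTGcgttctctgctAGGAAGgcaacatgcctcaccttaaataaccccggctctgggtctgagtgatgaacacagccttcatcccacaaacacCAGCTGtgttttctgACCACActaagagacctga

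Matches were counted in the same 300-base window of every region of both loci, beside 50867 merged regions on assembled chromosomes. A RUNX match was present in 7 of the 13 Rag regions (53.8%) and in 5 of the 17 Dntt regions (29.4%), against 28.3% of all regions. A FOXO match was present in 5 Rag regions (38.5%) and 1 Dntt region (5.88%), against 14.9%. E2A-type E-boxes were found in 6 Rag regions (46.2%) and 9 Dntt regions (52.9%), against 39.7%, and ETS matches in 7 (53.8%) and 11 (64.7%), against 46.9%. Ikaros matches were found in 15.4% of Rag and 17.6% of Dntt regions, against 23.2%, and EBF1 matches in 15.4% and 11.8%, against 18.8%. The CCAAT box was found in 23.1% and 35.3%, against 31.0%. STAT matches were found in 15.4% and 5.88%, against 10.1%, and AP-1 matches in 15.4% and 17.6%, against 10.2%. The region 25.7 kb upstream of Rag2 held an ETS, a RUNX, a STAT and an AP-1 match, and the STAT match began at −8 from its summit. The region 8.7 kb upstream of Rag2 held only a CCAAT box. The region 6.9 kb upstream of Dntt held E2A-type E-boxes at −32 and −9, an ETS match at 9 and an Ikaros match at 79 from its summit.

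The peak lists were of similar size, with 33038 to 39038 peaks each. A summit pileup is the number of read ends within 100 bp of a summit. It was recovered exactly from the deposited values for 100% of the peaks, and its median was 22 to 26 per list. Scaled pileups were divided by a size factor per list, 0.880 to 1.08. The labelled cell type was checked by promoter peaks, taken from 2000 bp before to 200 bp after a transcription start. Of 9 B-lineage markers, 8 had a promoter peak in every list and Cd79b had one in all but K43M replicate 2. Of 8 T-lineage markers, Lck and Gata3 had a promoter peak in all lists and the other 6 in none. Of 7 myeloid markers, 6 had none in any list and Lyz2 had one in both WT lists. Of the erythroid and megakaryocyte markers, Gata1, Klf1 and Epor had none, and Itga2b had one in all lists but WT unnumbered. Of 4 markers of other tissues, 3 had none and Gfap had one in WT replicate 2.

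**Figure D1:**
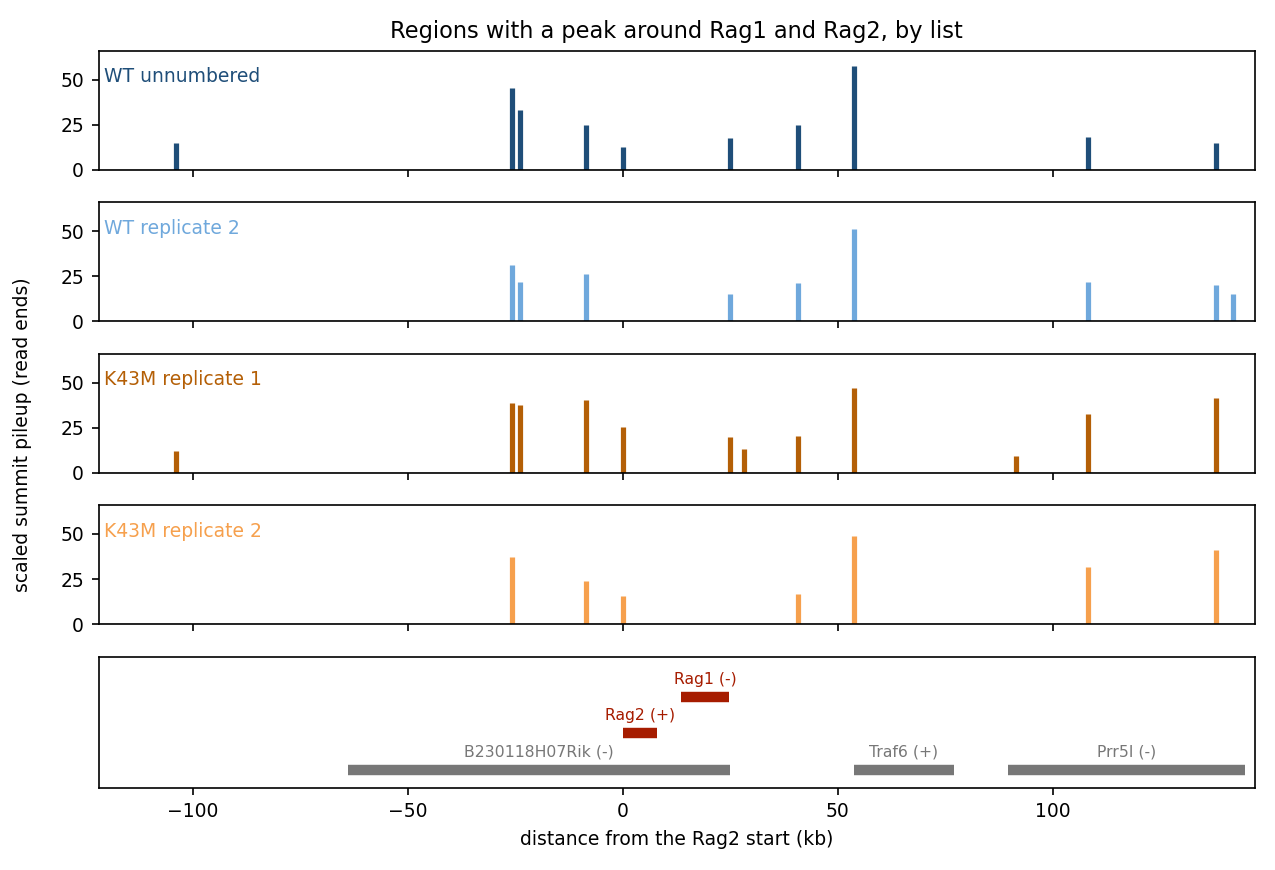
Scaled summit pileup (read ends, vertical axis) of each region in the Rag window against its distance from the Rag2 start in kb, with 1 panel per list and the protein-coding genes and their strands at the bottom. The region at Traf6, 53.7 kb from the Rag2 start, is the highest in every list, and the Rag promoter regions at -0.1 and 24.9 kb are each missing from 1 list.

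The WT lists had 10 and 9 peaks in the Rag window (unnumbered, then replicate 2), and the K43M lists had 12 and 7 (replicate 1, then replicate 2). The genotypes thus had 19 peaks each and the lists overlapped. Of the 13 merged regions, 6 had a peak in all 4 lists (46.2%), against 41.2% of all regions. Regions with a peak in both lists of a genotype numbered 8 in WT and 7 in K43M, against 25920 and 28398 of all 50965 regions. Without K43M replicate 2 the remaining K43M list had 12 in the Rag window. No Rag region was strictly of 1 genotype, which means a peak in both its lists and in neither list of the other. Over all regions 4.51% were strictly WT-only and 7.64% strictly K43M-only. With 1 list left out, strictly WT-only Rag regions numbered 1 without WT unnumbered and 2 without K43M replicate 1. Strictly K43M-only Rag regions numbered 1 without WT unnumbered and 2 without K43M replicate 2. Leaving out a list loosens the rule, and the shares over all regions were not computed for it. These counts thus have no background beside them.

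The Rag1 promoter region, chr2:101649396-101649771, had summit pileups of 19 in WT unnumbered, 15 in WT replicate 2 and 21 in K43M replicate 1, and no peak in K43M replicate 2. The 3 pileups were close to each other and below the median peak of their lists, at percentiles 38.6, 30.7 and 45.2 of −log10 q. Exact 95% Poisson intervals, which cover counting error only, were 11.4 to 29.7, 8.4 to 24.7 and 13.0 to 32.1. Their summits lay within the printed Rag1 promoter. The same region holds the start of B230118H07Rik, a gene that runs on the same strand across Rag1 and Rag2, so the starts cannot be told apart. In K43M replicate 2 the nearest peak was 15559 bp away. At the background of that distant peak, 59 read ends per 10 kb, a pileup of 6 would have met the weakest p of that list. The background at the promoter itself is unknown for that list. It was 106, 90 and 127 in the lists with a peak, so the pileup needed at the promoter may be higher. A summit below the needed pileup, or a narrower one, was not detectable in that list. With a value in only 1 K43M list, no test of the genotypes is given for this promoter.

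The Rag2 promoter region, chr2:101624556-101625112, had summit pileups of 14 in WT unnumbered, 27 in K43M replicate 1 and 14 in K43M replicate 2, and no peak in WT replicate 2. K43M replicate 1 was the highest. The other pair of lists had the same pileup, 1 from each genotype. Summits lay at chr2 position 101624715 in WT unnumbered, 101624663 in K43M replicate 1 and 101624995 in K43M replicate 2, the last inside the gene. WT replicate 2 had its nearest peak 8348 bp away, and at the background of that peak a pileup of 8 would have met its weakest p. The background at the promoter itself is unknown for that list. With a value in only 1 WT list, no test of the genotypes is given here either. The Rag promoters were thus missing from a list of different genotypes, Rag1 from a K43M list and Rag2 from a WT list.

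Upstream of Rag2, inside introns of B230118H07Rik, lay 3 distal regions, which had higher summit pileups than the Rag promoters in every list where they had a peak. Their nearest protein-coding start was that of B230118H07Rik, and no value here ties them to the Rag genes. The region 25.7 kb upstream (chr2:101598823-101599166) had scaled pileups of 45.3 and 31.0 in the WT lists and 38.4 and 37.5 in the K43M lists. Both K43M lists lay between the WT lists. The log2 difference in fold enrichment was −0.06 ± 0.18 (SE, adjusted p = 0.941, limma), and the 4 summits lay within 35 bp of each other.

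Next to it, 24.0 kb upstream of Rag2 (chr2:101600614-101601081), scaled pileups were 33.3, 22.0 and 37.5 in WT unnumbered, WT replicate 2 and K43M replicate 1. K43M replicate 2 had no peak there. Its peak at the neighbouring region, 1467 bp away, had a scaled pileup of 37.5, within the range of the other lists (31.0 to 45.3). At the background of that neighbour a pileup of 9 (10.2 scaled) would have met the weakest p of the list, a level that the other 3 lists exceeded. The absence was seen in 1 of 2 K43M lines.

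The region 8.7 kb upstream of Rag2 (chr2:101615752-101616500) had scaled pileups of 25 and 26.0 in the WT lists and 40.3 and 23.9 in the K43M lists. K43M replicate 1 stood above the other 3, which were close together, and K43M replicate 2 was the lowest. The log2 difference in fold enrichment was 0.02 ± 0.19 (SE, adjusted p = 0.983, limma), and it was −0.30 without K43M replicate 1.

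On the other side, upstream of Rag1, the region at 16.0 kb (chr2:101665277-101665752) is intergenic. Its scaled pileups were 25 and 21 in the WT lists and 20.6 and 17.0 in the K43M lists. Both K43M values lay below both WT values, by a small margin, and on fold enrichment the genotypes overlapped. The log2 difference was −0.20 ± 0.17 (SE, adjusted p = 0.688, limma). Closer to Rag1, 3.4 kb upstream, a peak was listed in K43M replicate 1 only, with a pileup of 14. The region at 28.9 kb is the promoter of Traf6, which encodes a ubiquitin ligase of receptor signalling, and had scaled pileups of 57.3, 51.0, 46.9 and 48.9. It was the highest region of the window in every list. No region between the Rag gene ends had a peak in any list.

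Beyond Traf6, 4 regions lay in Prr5l, which encodes a protein that binds the mTORC2 kinase complex. In an intron 113.1 kb upstream of Rag1 (chr2:101762370-101763233), summit pileups were 16 and 20 in the WT lists and 44 and 36 in the K43M lists. Scaled, these were 14.8, 20.0, 41.2 and 40.9, so both K43M lists stood well above both WT lists. The means were 17.4 ± 3.68 in WT and 41.1 ± 0.244 in K43M (SD, n = 2), a 2.36-fold difference. On fold enrichment, which divides by the local background, the log2 difference was 0.66 ± 0.18 (SE) and did not pass the threshold of 0.05 (adjusted p = 0.163, limma). On the log2 scaled pileup it was 1.26 ± 0.28 and passed (adjusted p = 0.026, limma). The local background was also higher in K43M, 144 and 157 read ends per 10 kb against 85 and 109, and its part in the difference was not tested. Adjusted p was between 0.026 and 0.437 over the other settings, and leaving out any of the 4 lists gave no call.

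A neighbouring Prr5l intron region, 83.4 kb upstream of Rag1 (chr2:101732664-101733243), had scaled pileups of 18.5, 22.0, 32.8 and 31.8. Both K43M lists were again above both WT lists. The log2 difference in fold enrichment was 0.22 ± 0.16 (SE, adjusted p = 0.648, limma). These 2 regions lie far from Rag1 and inside another gene, and no value here ties them to the Rag genes. The remaining Prr5l regions had a peak in 1 list each.

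**Figure D2:**
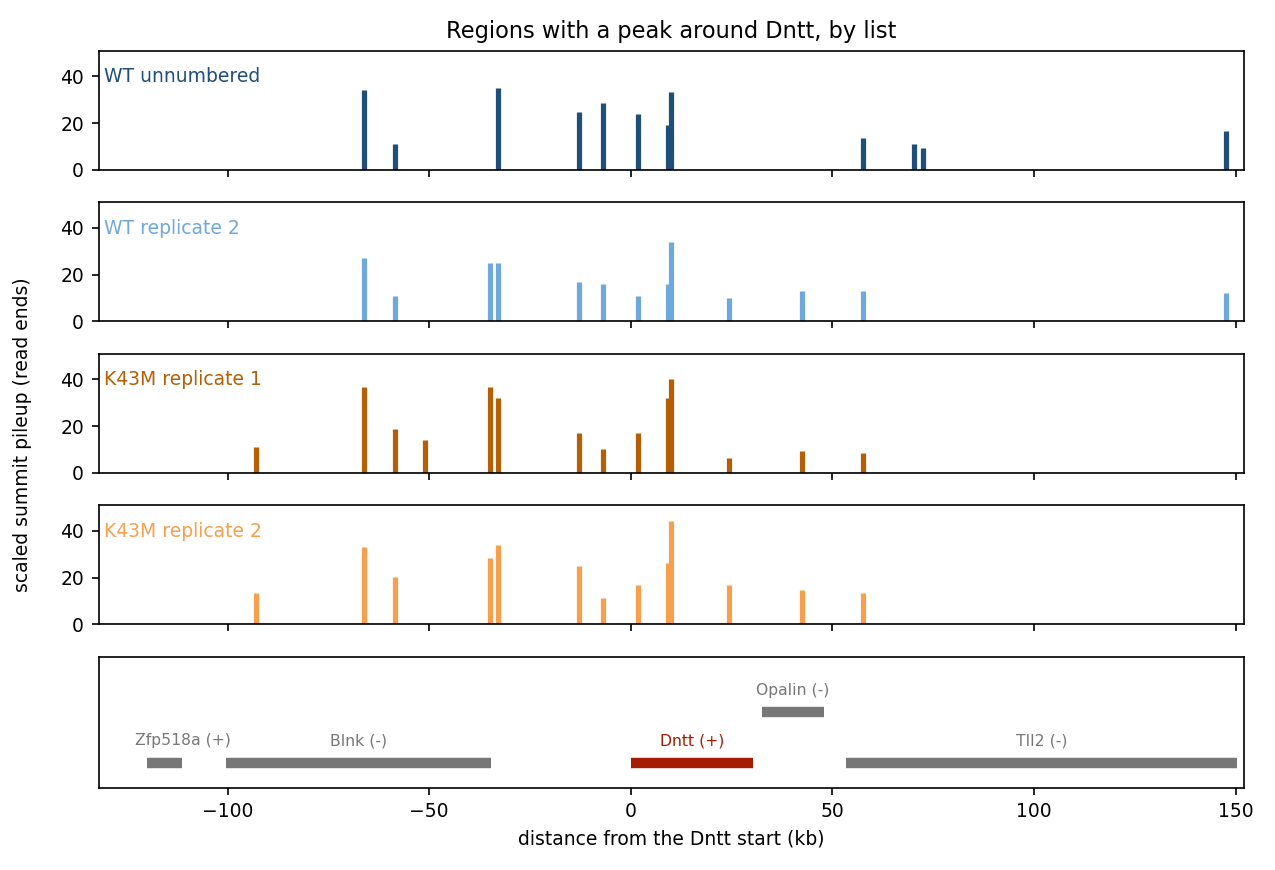
Scaled summit pileup (read ends, vertical axis) of each region in the Dntt window against its distance from the Dntt start in kb, with 1 panel per list and the protein-coding genes and their strands at the bottom. No list has a region at distance 0, the Dntt start, and the region at 10.0 kb inside Dntt is the highest of the window in all lists but WT unnumbered.

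Both WT lists had 13 peaks in the Dntt window, and the K43M lists had 15 and 13. Of its 17 regions, 9 had a peak in all 4 lists (52.9%, against 41.2% of all regions), and 10 had a peak in both WT lists and 13 in both K43M lists. Of all 50965 regions, 25920 had a peak in both WT lists and 28398 in both K43M lists. With the same number of peaks taken from each list, the Dntt counts were 10 for WT and 10 for K43M. The Dntt promoter had no peak in any list. Among 21728 protein-coding genes, 48.0% had a promoter peak in all 4 lists. The shares with a peak in no list, as for Dntt, or in 3 lists, as for Rag1 and Rag2, were not counted. The nearest peaks to the Dntt promoter began 1462 to 1544 bp beyond it, in an intron of the gene, and at their backgrounds a pileup of 7 to 11 would have met the weakest p of each list. Below that level an open Dntt promoter was not detectable at this depth.

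Of the 17 regions, 5 had Dntt as their nearest protein-coding start, and all 5 had a peak in every list. In the Rag window 1 region had a Rag start as its nearest. The intergenic region 12.8 kb upstream (chr19:41015937-41016809) had scaled pileups of 25 and 17.0 in the WT lists and 16.9 and 25 in the K43M lists. Each genotype had a high and a low list, and the log2 difference in fold enrichment was −0.03 ± 0.20 (SE, adjusted p = 0.967, limma).

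The region 6.9 kb upstream of Dntt (chr19:41022064-41022875) had summit pileups of 31, 16, 11 and 10, which were 28.7, 16.0, 10.3 and 11.4 after scaling. Both K43M lists were below both WT lists. The means were 22.3 ± 8.96 in WT and 10.8 ± 0.742 in K43M (SD, n = 2), 2.06-fold higher in WT, and the WT lists differed from each other by more than WT replicate 2 differed from K43M. The log2 difference in fold enrichment was −0.37 ± 0.20 (SE, adjusted p = 0.504, limma). On the log2 scaled pileup it was −0.98 ± 0.34 (adjusted p = 0.129, limma). The local background was 161 and 82 read ends per 10 kb in the WT lists and 58 and 55 in the K43M lists, and its part in the difference was not tested.

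Inside Dntt, 3 intron regions had a peak in all lists. The region 1.9 kb after the start (chr19:41031047-41031454) had scaled pileups of 24.0, 11.0, 16.9 and 17.0, and both K43M lists lay between the WT lists. The region at 9.1 kb (chr19:41038092-41038537) had 19.4, 16.0, 31.9 and 26.1, with both K43M lists above both WT lists. Its means were 17.7 ± 2.42 in WT and 29.0 ± 4.06 in K43M (SD, n = 2), a 1.64-fold difference, and its log2 difference in fold enrichment was 0.51 ± 0.22 (SE, adjusted p = 0.378, limma) and 0.27 without K43M replicate 1.

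The region at 10.0 kb (chr19:41038826-41039621) was the highest in the gene, with scaled pileups of 33.3, 34.0, 40.3 and 44.3 and summits within 9 bp of each other in the 4 lists. Both K43M lists were above both WT lists on the pileup, and on fold enrichment the genotypes overlapped (log2 difference 0.17 ± 0.17 SE, adjusted p = 0.755, limma). Thus, of the 5 regions nearest the Dntt start, 1 was lower on the scaled pileup in both K43M lists, 2 were higher and 2 overlapped, and none passed the test. Over all 21012 regions with a peak in every list, 24.5% were higher and 24.2% lower in both K43M lists, so 3 of 5 without overlap is close to the background. A further intron region, 24.4 kb after the start, had pileups of 7 and 15 in the K43M lists and 10 in WT replicate 2, and no peak in WT unnumbered.

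Strictly genotype-only regions numbered 1 in each direction in the Dntt window, against 4.51% of all regions for WT and 7.64% for K43M. The WT-only region lay in an intron of Tll2, a metalloprotease gene, 147.7 kb from the Dntt start (chr19:41176824-41177184), with pileups of 18 in WT unnumbered and 12 in WT replicate 2. The K43M-only region lay in an intron of Blnk, which encodes an adaptor of pre-B-cell receptor signalling, 93.0 kb upstream of Dntt (chr19:40936030-40936489), with a pileup of 12 in each K43M list. Both regions lay below the middle of their lists, at percentiles of −log10 q from 28.0 to 45.6. With 1 list left out, WT-only regions numbered 3 without WT replicate 2, and K43M-only regions numbered 4 without WT replicate 2 and 2 without K43M replicate 2. The shares over all regions under this looser rule were not computed.

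The remaining Dntt regions belonged to neighbouring genes. Around the Blnk start, 35.0 and 33.0 kb upstream of Dntt, regions had pileups of 25 to 39 where a peak was listed, and the first lacked a peak in WT unnumbered. A Blnk intron region 58.6 kb upstream had scaled pileups of 11.1, 11.0, 18.7 and 20.5, both K43M lists above both WT lists (log2 difference in fold enrichment 0.27 ± 0.21 SE, adjusted p = 0.662, limma). The region in a Tll2 intron at 57.6 kb had 13.9, 13.0, 8.4 and 13.6, which overlapped, while on fold enrichment both K43M lists, 4.03 and 5.46, lay below both WT lists, 6.11 and 5.65. Its log2 difference in fold enrichment was −0.32 ± 0.23 (SE, adjusted p = 0.629, limma), −0.05 without K43M replicate 1 and −0.59 without K43M replicate 2. No list had a peak at the promoter of Opalin, a gene of myelinating cells that starts in the window.

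**Figure D3:**
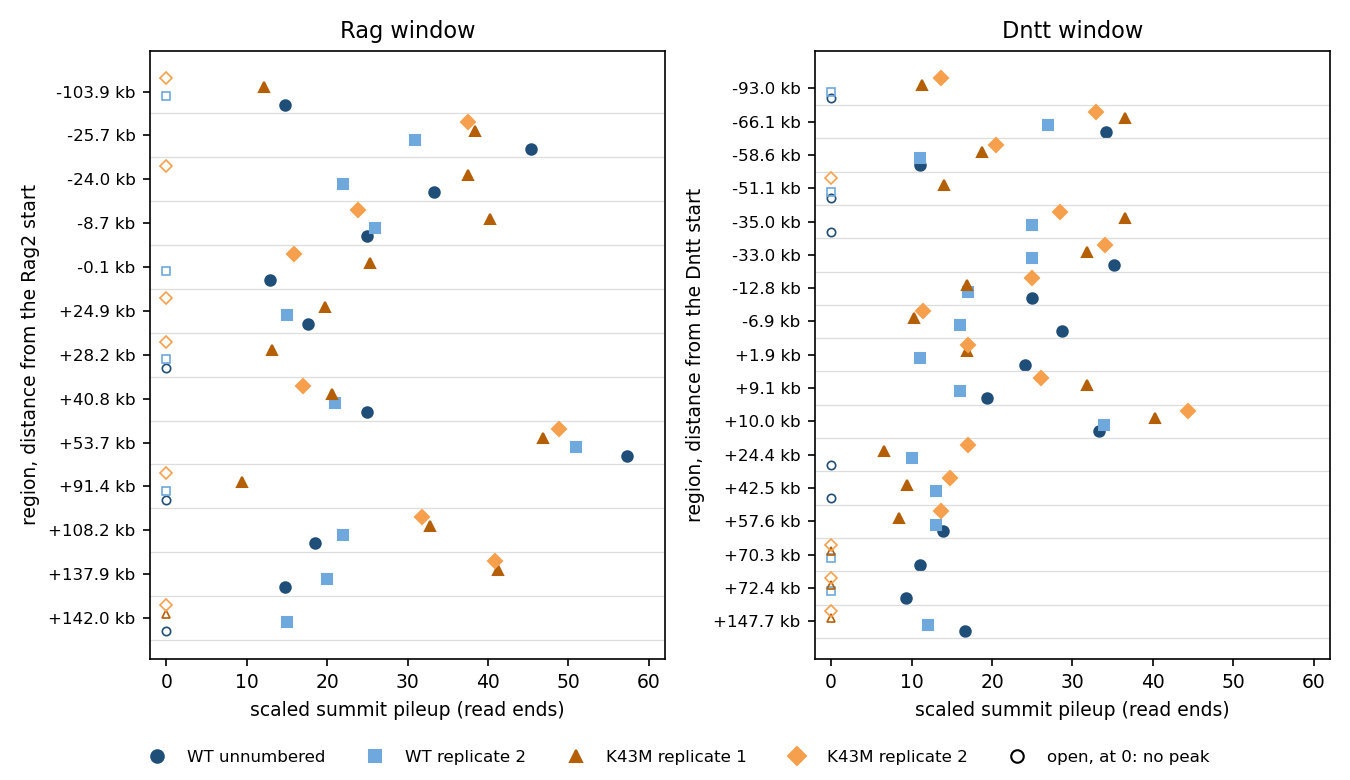
Scaled summit pileup (read ends, horizontal axis) of every region in the Rag window (left) and the Dntt window (right), labelled by distance from the Rag2 or Dntt start, with 1 marker shape per list. Open markers at 0 are lists with no peak. K43M markers stand clear of WT markers at 137.9 kb from Rag2 (40.9 and 41.2 against 14.8 and 20.0), and lie below them at -6.9 kb from Dntt.

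Levels were tested by limma on log2 fold enrichment over all 21012 regions with a peak in every list. Of these, 13 were higher in K43M (0.0619%) and 10 lower (0.0476%) at an adjusted p below 0.05, and none of the 6 Rag and 9 Dntt regions tested was among them. At an unadjusted p below 0.05 there were 2 of the 15 regions and 2570 of all. On the scaled pileup 1 of the 15 and 760 of all were called. The counts over all regions turned on single lists: none was called without K43M replicate 1 or without K43M replicate 2, 190 were higher and 61 lower without WT unnumbered, and 248 were higher and 103 lower without WT replicate 2.

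The median log2 difference in fold enrichment was −0.02 over the 6 Rag regions, 0.13 over the 9 Dntt regions and 0.0015 over all regions. Differences ranged from −0.20 to 0.66 in the Rag window and from −0.37 to 0.51 in the Dntt window. On the scaled pileup both K43M lists lay above both WT lists in 2 Rag and 3 Dntt regions, and below in 2 and 1. Beside the shares over all regions given above, such a pattern was common. Summits of the 15 regions lay within a median of 55 bp across the lists, against 56 bp over all regions.

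**Figure D4:**
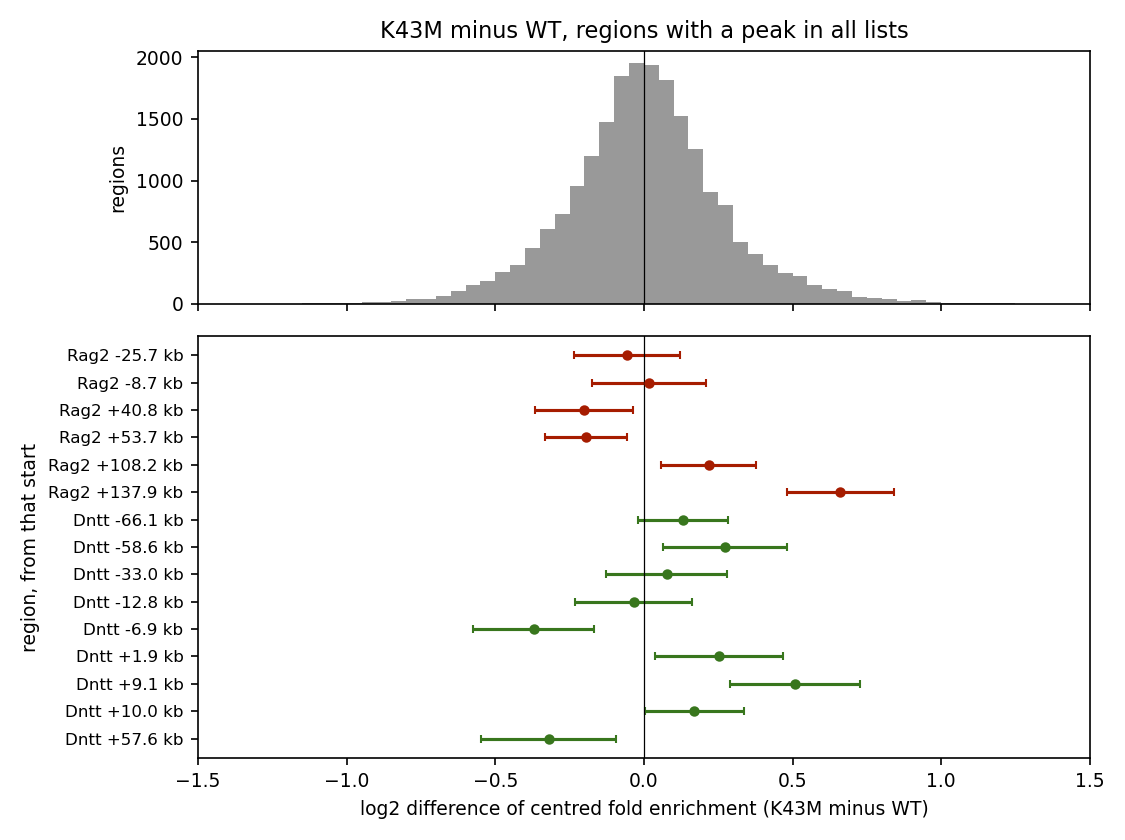
Log2 difference in centred fold enrichment, K43M minus WT, for all 21012 regions with a peak in every list (top, number of regions per bin) and for the 6 Rag regions (red) and 9 Dntt regions (green), with bars of 1 SE (bottom). The Rag region 137.9 kb from the Rag2 start has the largest difference, 0.66, and the 15 regions lie on both sides of 0.

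Summed over the Rag window, scaled pileups were 264.4 and 222.9 in the WT lists and 337.5 and 215.9 in the K43M lists. The K43M lists held both the highest and the lowest sum. K43M minus WT was 0.15 on the log2 scale (two-sided exact permutation p = 1), and −0.17 without K43M replicate 1. Over the Dntt window the sums were 288.5, 229.9, 317.8 and 298.8, with both K43M lists above both WT lists. The log2 difference was 0.26, and its two-sided exact permutation p of 0.333 is the smallest that 2 against 2 lists allow. The difference was 0.42 without WT unnumbered and 0.095 without WT replicate 2. With only the regions that had a peak in all lists it was 0.17 and the genotypes overlapped (exact permutation p = 1). Without the peaks at promoters of other genes, a choice made after seeing the data, the Dntt difference was 0.18 and the genotypes overlapped (exact permutation p = 0.667), and the Rag difference was 0.22 (exact permutation p = 1).

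The windows held more regions than that of the median gene. With the same extension of 120 kb, Rag1 had 13 regions, Rag2 11 and Dntt 17, against a median of 10 over 21755 genes (percentiles 61.7, 52.9 and 77.9). Per 100 kb these were 5.17, 4.44 and 6.29, against a median of 3.54 (percentiles 69.2, 61.1 and 80.0). The genes on other chromosomes with the most alike summed pileups over the 4 lists were Stx11, Zfp957 and Slc15a4 for the Rag window and Atp8a2, Cct7 and Wap for the Dntt window. Likeness was the Euclidean distance of the log2 sums, 0.0527 to 0.125 for the first group and 0.0728 to 0.077 for the second. Within a distance of 0.5 there were 542 of 16746 genes for Rag and 1487 of 17620 for Dntt, so neither profile was unique to its window. The log2 sums were not centred, so the distance also reflects the total signal of a window.

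Genes that act with RAG1, RAG2 and TdT were open in both genotypes. All 10 end-joining genes, among them the Ku subunits Xrcc5 and Xrcc6 and the DNA ligase Lig4, had a promoter peak in every list. So did all 7 genes of RAG cofactors and the break response, among them Hmgb1, which helps RAG bend DNA, and the damage kinase Atm. Of 12 regulators of Rag transcription, 11 had a promoter peak in every list, including Foxo1, Tcf3 (which encodes E2A), Ebf1 and Pax5. In total 28 of 29 genes had one in every list, against 48.0% of protein-coding genes. With starts of protein-coding transcripts only, the end-joining gene Nhej1 had no promoter peak in any list. The regulator Bcl11a lacked one in K43M replicate 2 with a promoter of 500 bp on either side, and also at −log10 q of at least 5.

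With promoters as first defined, the exception was Ikzf1, which encodes Ikaros. Its promoter had a peak in both K43M lists and in neither WT list, a pattern that 2.02% of protein-coding genes had. The peak region (chr11:11685525-11686371) had a fold enrichment of 5.5 in K43M replicate 1, near the middle of its list at percentile 52.6, and 3.09 in K43M replicate 2, at percentile 0.814. The second value was among the weakest of its list, and the nearest WT peak was 2714 bp away. At −log10 q of at least 5, only the peak of K43M replicate 1 was left.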

How the data were processed

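ATAC-seq of 4 lines was deposited as 4 lists of MACS2 peaks, 1 per library. According to the methods and the submitters' processing notes, the authors trimmed reads (Trimmomatic 0.36), mapped them to mm10 (BWA 0.7.15), filtered them (SAMtools 1.3.1) and called peaks (MACS2 2.1.0). No pooling of replicates before peak calling is stated. The deposited fold enrichment is the authors' ratio of summit pileup to local background, each plus 1, and each peak also has the authors' −log10 p and, adjusted, −log10 q. Reads were not analysed here, and the number of reads per library is unknown.

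From these values the whole-number summit pileup and the background were recovered for 100% of peaks. The lowest background of each list was 48.4 to 65.3 read ends per 10 kb, and local backgrounds at peaks in the windows reached 382. Pileups without molecular identifiers count read ends, not molecules, so intervals cover counting error only. Peaks overlapping by at least 1 bp were merged into regions, and the strongest peak stood for a list. Genes came from GENCODE mouse release 21, whose build matches the lists: no peak passed a chromosome end. The authors' annotation was another release. Sequences came from RefSeq GRCm38.p6. Levels were tested with limma 3.58.1 (R 4.3.3; trend, Benjamini-Hochberg, threshold 0.05) on log2 fold enrichment centred per list, and sums by exact permutation, after tests on simulated data. Size factors were median ratios over regions with a peak in every list.

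Groups came from labels for 3 lists and from the series' design text for the unnumbered list. Nothing names a batch, but by the design text the line taken for the unnumbered list was deposited earlier. Whether this affected its values was not tested. Values in every list are given for the promoters of the 3 genes, strictly genotype-only regions, Rag regions upstream of or between the genes with a peak in at least 3 lists, and the 3 regions per window with the largest differences. Other regions named were chosen after their values were seen. Named genes are the 3 genes, protein-coding genes starting in the windows, listed genes that lack a promoter peak in a list, and 3 most alike genes per window. The genes, lists and regions were chosen with earlier results of these data known. Alternatives were a stricter q, equal list sizes, other windows, promoters, overlaps and scalings, and leaving out each list. The result of 1 listed marker gene is not reported here.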

Additional observations from a re-analysis of the deposited data

How the results depend on the processing

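No paired analysis was run, because nothing in the labels pairs a WT line with a K43M line. The genotypes share replicate number 2, but a shared number does not make a pair. Of 163 alternative values of counts and sums, 130 kept their direction or stayed within 1.5 times. The promoter peaks of Rag1, Rag2 and Dntt were in the same lists under every alternative run. The summed pileup of the Rag window changed sign, to −0.0061 as a sum of deposited fold enrichments and −0.026 in a window of 50 kb, and was −0.17 to 0.48 with 1 list left out. The Dntt sum stayed positive, between 0.095 and 0.42, and its genotypes overlapped with only the regions in all lists (0.17) and without other genes' promoters (0.18). With 1 list left out, which loosens the rule, strictly genotype-only regions ranged from 0 to 2 for each genotype in the Rag window. In the Dntt window they ranged from 1 to 3 for WT and 1 to 4 for K43M. In a window of 50 kb both Dntt counts were 0, and in one of 200 kb there was 1 K43M-only Rag region and 2 K43M-only Dntt regions. With a K43M list left out, the remaining K43M list alone had a peak in 7 (without replicate 1) or 12 (without replicate 2) Rag regions. Pathway genes with a promoter peak in K43M lists only fell to 0 at −log10 q of at least 5 and with equal list sizes.

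Calls over all regions, 13 higher and 10 lower in K43M, were 404 and 356 on the scaled pileup, 6 and 4 after quantile normalization, 0 and 0 without centring, and 21 and 15 when missing peaks were allowed. With 1 list left out they were 0 to 248 higher and 0 to 103 lower. In the Rag window 1 region was called on the scaled pileup, 113.1 kb upstream of Rag1. Small differences changed sign in 9 of 120 values for single regions. The region 25.7 kb upstream of Rag2 gave 0.019 on the scaled pileup and −0.30 to 0.18 with 1 list left out, and that 8.7 kb upstream gave −0.30 to 0.33. In the Dntt window the region 66.1 kb upstream gave −0.0096 to 0.27 with 1 list left out, that 33.0 kb upstream −0.11 to 0.27 and that 12.8 kb upstream −0.17 to 0.10. Where a list was left out, the lone list was assumed to vary like the other genotype. The cause of these changes was not tested. Summit pileups in both windows were 7 to 62 read ends, so counting error alone was large, and with 2 lists per genotype an absent peak sets only an upper limit.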
